A study of Mus musculus with 2 samples.

Results

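The Meg3-proximal microRNA genes of the imprinted Dlk1-Dio3 domain are a set of 8 hairpin genes on chromosome 12 of the mouse: Mir770, Mir673, Mir493, Mir337, Mir3544, Mir540, Mir665 and Mir370. They were taken by symbol, through the identifiers of the gene annotation, from 2202 microRNA genes in the deposited tables. The rule used no measured value, though earlier results of these data were known when the genes were chosen. The samples were gastrocnemius, a calf muscle, from males aged 14 days of B6CASTF1/J, the F1 hybrid between the C57BL/6 and CAST/EiJ strains, and RNA under 30 nt was sequenced. The study has 1 group, with 2 biological replicates of 1 library each, and neither a treatment nor another tissue. The replicates have 1 donor identifier in common, their labels speak of more than 1 male, and whether each is an animal or a pool is not stated. Spreads and p-values therefore measure how far these 2 samples differ, which may be partly technical.

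In the Dlk1-Dio3 domain the paternal chromosome expresses the protein-coding genes Dlk1, Rtl1 and Dio3, and the maternal chromosome expresses the long noncoding RNAs Meg3, Rian and Mirg together with the microRNAs. A microRNA hairpin is cut into a 5p and a 3p mature arm, and bases 2 to 8 of a mature arm, the seed, pair with target messages. The domain is known for its part in growth and development, and its microRNAs are abundant in embryonic and early postnatal tissue. The tables count reads per hairpin gene, so they separate neither the 5p from the 3p arm nor the maternal from the paternal allele.

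Mature sequences of the genes on which the values below turn are from RefSeq (GRCm38.p6), 5′ to 3′, with the seed in capitals. All 8 hairpins and 16 mature arms were found there, and the hairpin coordinates of all 8 were those of the gene annotation. The first set is the pair annotated on opposite strands of the same stretch, Mir337 and Mir3544.
miR-337-5p: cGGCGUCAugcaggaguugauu
miR-3544-3p: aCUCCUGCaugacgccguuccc
miR-337-3p: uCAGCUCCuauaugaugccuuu
miR-3544-5p: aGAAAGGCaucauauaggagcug
In these arms miR-337-5p and miR-3544-3p are exact reverse complements over 17 bases, which hold all 7 seed bases of both. The miR-337-3p and miR-3544-5p arms are so over 21 bases, with 7 seed bases of the first and 6 of the second.

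The next set is the gene within Meg3, Mir770, and the gene that follows it, Mir673, because their ratio differed most between the libraries among neighbouring genes on one strand.
miR-770-5p: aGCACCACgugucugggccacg
miR-770-3p: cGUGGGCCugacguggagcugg
miR-673-5p: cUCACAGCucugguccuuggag
miR-673-3p: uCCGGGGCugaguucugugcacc
The last set shows a seed held in common with a gene elsewhere in the domain, miR-1193-3p of Mir1193.
miR-370-5p: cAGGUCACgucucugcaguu
miR-1193-3p: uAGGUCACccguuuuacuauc
No seed was shared among the 16 arms of the 8 genes. Of these arms, 3 shared a seed with another mouse microRNA in the RefSeq table. Mir1193 had 582 CPM (counts-per-million, scaled to all own-strand counts of microRNA genes) in replicate 1 and 450 CPM in replicate 2. The other partners were Mir6985, the partner of miR-673-5p, with no count in either library, and Mir6915, the partner of miR-540-3p, at 0 and 0.452 CPM.

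None of the 16 mature sequences was that of another mouse microRNA gene in the table. A read that maps to more than 1 locus enters no gene's count. Of the 8 hairpins, only those of Mir337 and Mir3544 had a 20-base stretch, read on either strand, in common with another hairpin, namely each other. For this the 8 were compared with the mouse hairpins of the RefSeq table and not with the genome. Hairpins of 7 of the 8 genes had a G and C content above the median of 51.7% over 1005 mouse hairpins. Mir770 had 70.2%, higher than 97.5% of them. Its predicted folding energy was -0.62 kcal/mol per base, against a median of -0.41, and 3.38% of hairpins were predicted to be more stable by that measure. Mir3544 had the least stable prediction of the 8, at -0.39 kcal/mol per base.

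The genes do not all lie beside Meg3. On mm10 (GENCODE M21), Meg3 runs from 109541001 to 109571726 on the plus strand of chromosome 12. Mir770 (ENSMUSG00000076451.1, 109563692 to 109563785) lies within it, in an exon of 1 Meg3 transcript and in introns of 3 others. Mir673 (ENSMUSG00000076316.1, 109571990 to 109572080) starts 0.264 kb after the annotated end of Meg3. Mir493 (ENSMUSG00000077025.2, 109580233 to 109580315) starts 8.51 kb after that end and overlaps no other annotated gene. Mir337 (ENSMUSG00000065526.4, 109585789 to 109585885), Mir540 (ENSMUSG00000072900.2, 109586080 to 109586146) and Mir665 (ENSMUSG00000076313.1, 109586314 to 109586407) stand together, with 194 and 167 bases between one and the next. Mir665 ends 2.79 kb before Rtl1, which lies on the minus strand. Mir3544 (ENSMUSG00000105210.1, 109585813 to 109585873) is the 1 gene of the set on the minus strand, and its 61 bases lie inside the 97 bases of Mir337. Mir370 (ENSMUSG00000065433.1, 109618258 to 109618336) lies 46.5 kb after the end of Meg3, past Rtl1, in introns of 2 Rian transcripts, so by position it belongs with Rian and not with Meg3.

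Counts of microRNA genes totalled 2743657 in replicate 1 and 2211254 in replicate 2, or 27.3% and 27.0% of all reads. Reads that mapped to several loci made up 44.0% and 52.1%. A count of 0 allows up to 3 counts, which correspond to 1.09 CPM in the first library and to 1.36 CPM in the second. The tissue label was checked against marker microRNAs. All 9 skeletal muscle markers had a count, and 7 of them reached 10 CPM in both libraries. They summed to 69535 and 69214 CPM, nearly all of it Mir206 at 68288 and 67909 CPM. Of 7 neuron markers 2 had a count, and Mir124a-1, Mir124a-2, Mir124a-3, Mir9-1 and Mir9-2 were at 0. Several muscle and neuron markers are numbered copies of a microRNA, and reads that map to several loci enter no gene's count. A low count or a 0 of such a copy therefore does not show that the microRNA was scarce or absent. Shares and ratios of counts are given with their 95% interval by Wilson's method. Such intervals, like the limits for a count of 0, cover counting error alone and treat PCR copies as separate molecules. Where reads are PCR copies they are too narrow, and they do not cover reads that map to several loci.

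All 8 genes were expressed above 10 CPM in both libraries. Together they held 31043 counts in replicate 1 and 25387 in replicate 2. This was 1.13% of assigned counts in replicate 1 (1.12 to 1.14) and 1.15% in replicate 2 (1.13 to 1.16), or 1.14% ± 0.0118 (SD, n = 2). Most of it came from Mir337, Mir540 and Mir493, which held 77.9% of the 8 genes' counts in replicate 1 and 78.6% in replicate 2. The RNA sequenced was under 30 nt, shorter than each of the 8 hairpins. A CPM value is therefore given per hairpin gene and not divided by length.

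Mir337 was the most abundant, at 3191 CPM in replicate 1 against 3693 CPM in replicate 2, a mean of 3442 CPM ± 355 (SD, n = 2). Mir540 was at 3163 and 2902 CPM, a mean of 3032 ± 185 CPM. Mir493 was at 2457 and 2432 CPM, a mean of 2444 ± 17.3 CPM, the smallest relative spread of the set. Mir493 is known from studies of tumour spread, in which it lowers the insulin-like growth factor receptor Igf1r. Among all 629 genes with a count, ordered by mean CPM, these genes stood at places 39, 46 and 51.

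Mir673 was at 1066 and 997 CPM, a mean of 1031 ± 48.8 CPM. Mir665 was at 897 and 707 CPM, a mean of 802 ± 134 CPM. Mir770 was at 335 and 563 CPM, a mean of 449 ± 161 CPM, and here replicate 2 was the higher library. These genes held places 70, 82 and 112.

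Mir370, known from liver cells to lower Cpt1a, the enzyme that brings fatty acids into mitochondria for oxidation, was at 182 and 173 CPM, a mean of 177 ± 6.19 CPM. The minus-strand Mir3544 was at 25.1 and 14.5 CPM, a mean of 19.8 ± 7.55 CPM, which rests on 69 and 32 counts. They held places 149 and 241. The level per gene thus ran over more than 2 orders of magnitude within the set, with Mir337 at 127 times Mir3544 in replicate 1 (100.2 to 161) and 255 times in replicate 2 (181 to 361).

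**Figure D1:**
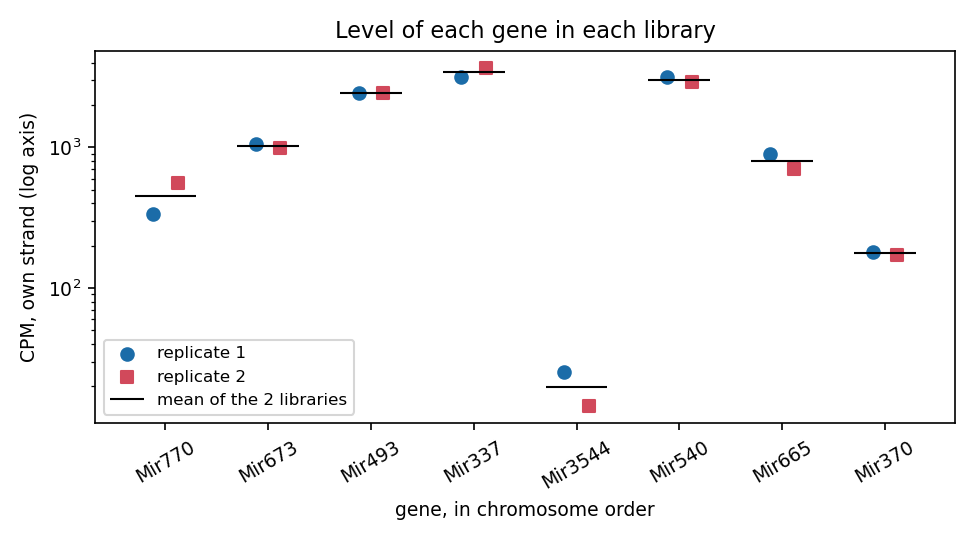
Level of each of the 8 genes in CPM on the own strand (log axis), in chromosome order, with replicate 1 as circles, replicate 2 as squares and the mean of the 2 libraries as a bar. The values rise from Mir770 to Mir337 and fall again to Mir370, with Mir3544, on the minus strand, at 25.1 and 14.5 CPM.

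The order of the 8 genes by CPM was the same in both libraries, and the values of 1 gene overlapped those of no other. The closest pair was Mir337 and Mir540. Their counts stood at a ratio of 1.01 in replicate 1 (0.979 to 1.04), so they did not differ there beyond counting error, and at 1.27 in replicate 2 (1.23 to 1.32). Divided by hairpin length, Mir540 came first at 4526 CPM per 100 nt and Mir337 second at 3548, and the other 6 kept their places. Mir540 stood at 1.29 times Mir493 in replicate 1 (1.25 to 1.33) and at 1.19 times in replicate 2 (1.15 to 1.24). Mir673 stood at 1.19 times Mir665 (1.13 to 1.25) and 1.41 times (1.32 to 1.50).

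At a similar CPM to these genes stood microRNAs of other loci and of other groups of the same domain. The CPM of a numbered copy, such as Mirlet7c-2, Mir92-1, Mir181b-2 or Mir138-2, leaves out reads that map to several loci. It can thus understate the microRNA, and the places among all genes given above carry the same limit. Mir337 came just below Mir433 of the Rtl1-antisense group (3494 CPM ± 42.1) and just above Mir30e (3430 ± 539 CPM), both within its own spread. Mir540 lay between Mirlet7e (3039 ± 143 CPM) and Mir98 (2900 ± 252 CPM), which are members of the let-7 family. Mir493 lay between Mir376c of the Mirg group (2461 ± 166 CPM) and Mir652 (2442 ± 299 CPM). Mir673 was next to Mir501 (1200 ± 90.5 CPM) and Mir320 (1029 ± 30.2 CPM). Mir665 was next to Mir342 (835 ± 86.1 CPM) and Mir181b-2 (775 ± 49.5 CPM). The neighbours of Mir770 were Mirlet7c-2 (453 ± 29.7 CPM) and Mir92-1 (432 ± 20.3 CPM). Those of Mir370 were Mir221 (186 ± 29.6 CPM) and Mir667 of the Mirg group (176 ± 18.1 CPM). Those of Mir3544 were Mir138-2 (20.0 ± 8.18 CPM) and Mir760 (18.0 ± 16.1 CPM).

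Close neighbours on the chromosome were counted at different levels. Mir540 and Mir665 lie on the same strand with 167 bases between them, and Mir540 stood at 3.53 times Mir665 in replicate 1 (3.37 to 3.69) and 4.10 times in replicate 2 (3.88 to 4.34). Mir493 stood at 2.31 times Mir673 (2.21 to 2.41) and 2.44 times (2.32 to 2.56), so the replicates differed little in that ratio. Mir673 stood at 3.18 times Mir770 in replicate 1 (2.95 to 3.42) but at 1.77 times in replicate 2 (1.65 to 1.90). These ratios are taken within a library and do not depend on its size.

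Reads on the opposite strand were examined next, because Mir337 and Mir3544 share a stretch. For the other 6 genes the opposite-strand column was 0 in both libraries. For Mir540 in replicate 1 this allows an opposite-strand count of up to 0.0346% of its 8678 own-strand counts. In the Mir337 and Mir3544 stretch, the minus-strand reads assigned to Mir3544 made up 0.782% of the reads of the pair in replicate 1 (0.618 to 0.988) and 0.390% in replicate 2 (0.277 to 0.550), and these intervals do not overlap.

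The opposite-strand count of Mir3544 was 8754 in replicate 1 and 8167 in replicate 2, equal to the own-strand count of Mir337. Every read assigned to Mir337 thus overlapped the 61 bases of Mir3544, the stretch that holds both annotated mature arms of Mir337. With either strand counted, both genes fell to 0 counts in each library, since a read under 2 genes is ambiguous in that column. The pair made up 1.36% of the ambiguous reads in replicate 1 and 1.61% in replicate 2. The other 6 genes had the same counts in both columns.

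Over the whole table, 32 pairs of microRNA genes overlap on opposite strands, and both genes of 8 pairs had a count. Mir3544 had the highest mean CPM among the lower genes of these 8 pairs. As a share of its pair it stood at a mean of 0.586%, below Mir3074-1, the partner of Mir24-1, at 22.6%, and Mir3107, the partner of Mir486, at 2.02%. Those pairs were picked out after their values were seen.

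Next, the 2 libraries were compared gene by gene, with the exact binomial test (two-sided) on library sizes scaled by the trimmed mean of M-values (TMM). The test ran over the 258 genes that reached 10 CPM in each library, with Benjamini-Hochberg adjustment at 0.05. It compares these 2 libraries and no condition, and its p-values cover counting error alone and treat PCR copies as separate molecules. Of all tested genes 50.8% differed, 31.8% lower and 19.0% higher in replicate 2. Of the 8 genes 7 differed, 5 lower and 2 higher, and the test passes smaller differences at the higher counts that most of them had. Differences were small, with a median absolute log2 ratio of 0.17 over the 8 genes and 0.18 over all tested genes. None of the 8 reached a 2-fold difference, which 1.16% of tested genes did. With total counts as library sizes, 66 of all tested genes were lower and 67 higher in replicate 2, and over the 8 genes 4 lower and 2 higher.

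Mir770 was higher in replicate 2. On TMM-scaled sizes it had 341 CPM in replicate 1 against 554 CPM in replicate 2, a 1.63-fold difference. Its log2 ratio on log2(CPM + 1) was 0.70 (exact binomial test, adjusted p = 2.03e-28). Of the 258 tested genes 8 had a larger absolute log2 ratio. Over 8 other settings the ratio ran from 0.69 to 0.78. Mir337 was also higher in replicate 2, at 0.16 on that scale (exact binomial test, adjusted p = 7.46e-13).

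Some markers of other cells were also higher in replicate 2 by the same exact binomial test. The erythroid markers, Mir451a and Mir144, both passed and summed to 384 CPM in replicate 1 against 571 CPM in replicate 2. The neuron markers with a count were Mir137, which passed, and Mir9-3, which was under the 10 CPM of the test. That list summed to 14.2 and 48.4 CPM, with the 5 Mir124a and Mir9 genes named above at 0. As numbered copies, these 5 have the limit given there. None of the 4 leukocyte markers passed, at a sum of 977 and 1048 CPM, nor did the liver microRNA Mir122, at 108 and 132 CPM. Of the muscle markers some passed in each direction, with Mir499 at 338 and 217 CPM and Mir1a-2 at 198 and 294 CPM. The part of these cells, and of the share of reads that mapped to several loci, in the level of Mir770 was not tested.

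The genes on the other side were lower in replicate 2. The log2 ratio of Mir3544 was -0.80 (exact binomial test, adjusted p = 0.0149), and 5 tested genes had a larger absolute ratio. Mir665 had -0.39 (exact binomial test, adjusted p = 2.46e-16), Mir540 -0.17 (exact binomial test, adjusted p = 2.59e-12) and Mir673 -0.14 (exact binomial test, adjusted p = 0.00116). Mir493 was at the edge of the test, with -0.06 (exact binomial test, adjusted p = 0.0408). Its adjusted p over 8 other settings ran from 0.0115 to 0.692, and the call was lost in 4 of them. Mir370 had -0.12 and did not pass (exact binomial test, adjusted p = 0.338).

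**Figure D2:**
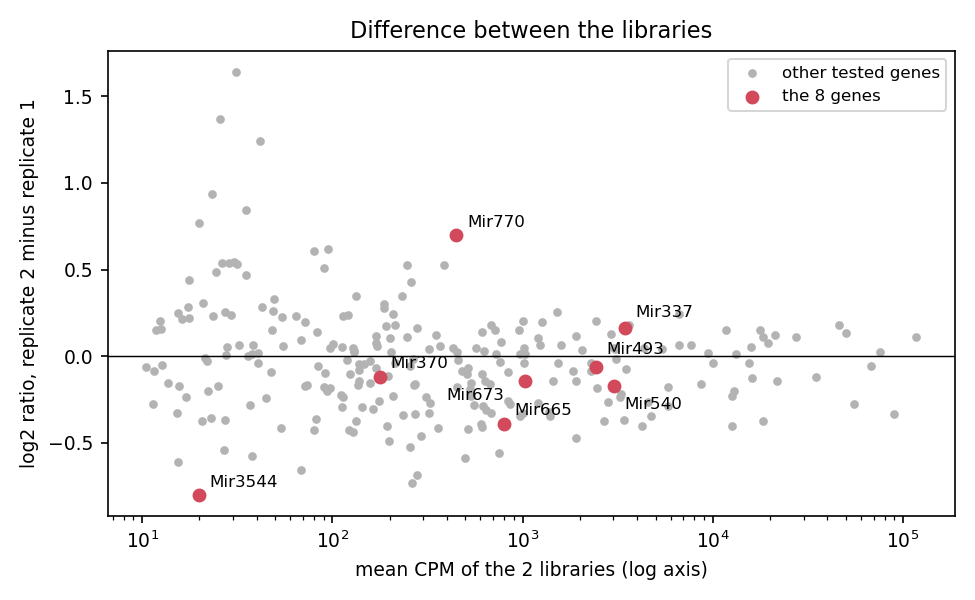
Log2 ratio of replicate 2 to replicate 1 against the mean CPM (log axis) for the 258 tested genes, with the 8 genes in red and the others in grey. Mir770 at 0.70 and Mir3544 at -0.80 stand farthest from 0 among the 8, and the other 6 lie between -0.39 and 0.16.

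The mix of the 8 genes within a library, which is free of library size, differed between the libraries too. Mir770 made up 2.96% of the 8 genes' counts in replicate 1 (2.78 to 3.16) and 4.90% in replicate 2 (4.65 to 5.18). Mir337 made up 28.2% (27.7 to 28.7) and 32.2% (31.6 to 32.7), and Mir540 was 28.0% (27.5 to 28.5) and 25.3% (24.7 to 25.8). Mir665 and Mir673 also had lower shares in replicate 2, at 7.92% against 6.16% and 9.42% against 8.68%, with intervals that do not overlap. For Mir493 at 21.7% and 21.2%, Mir370 at 1.60% and 1.50% and Mir3544 at 0.222% and 0.126% the intervals overlapped.

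**Figure D3:**
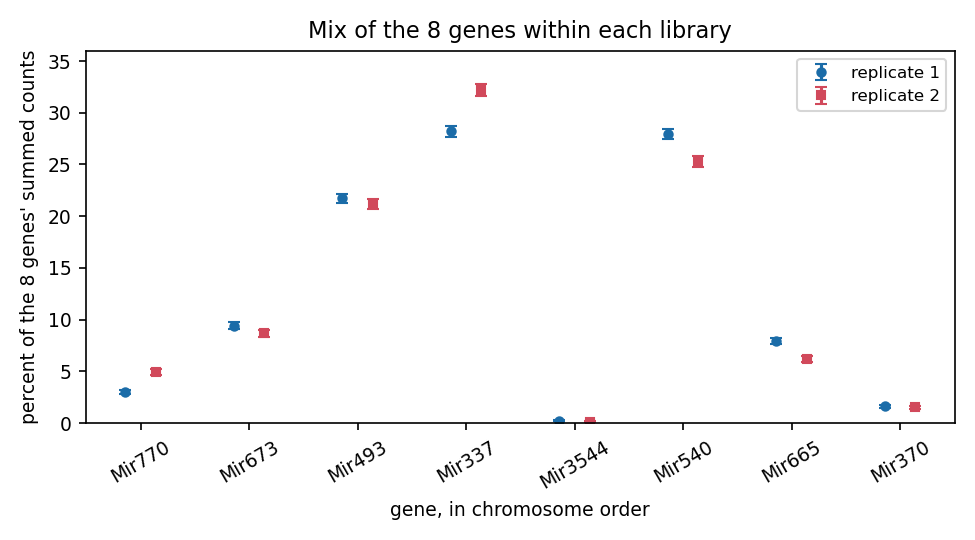
Share of each gene in the summed counts of the 8 genes, in percent, in chromosome order, with 95% Wilson intervals, replicate 1 as circles and replicate 2 as squares. Mir337, Mir540 and Mir493 make up most of the 8 genes' counts in both libraries, and the intervals of Mir770 (2.96% and 4.90%) stand apart.

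Within the domain these genes were a small part of the counts. The stretch between Dlk1 and Dio3 holds 67 microRNA genes of the tables, and the 8 genes held 4.53% of its counts in replicate 1 and 4.78% in replicate 2, or 4.65% ± 0.175 (SD, n = 2). The Rtl1-antisense list of 7 genes held 9.96% ± 0.186 of all assigned counts, led by Mir127 at 75510 CPM ± 2663 and Mir431 at 12545 ± 1119 CPM. The Mirg list of 43 genes from Mir379 to Mir410 held 13.3% ± 0.853, led by Mir411 (55294 ± 6202 CPM) and Mir379 (21851 ± 1002 CPM). The remaining 9 genes held 0.126% ± 0.0136, led by Mir341 (1211 ± 134 CPM) and Mir3072 (26.9 ± 6.75 CPM).

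The median level of the 8 genes, all of them tested, was 916 CPM. It was 583 CPM over the 32 tested genes of the Mirg list, 7682 CPM over 5 of the Rtl1-antisense list and 260 CPM over all 258 tested genes. Between the libraries the median log2 ratio was -0.13 for the 8 genes, -0.15 for the Mirg list, -0.07 for the Rtl1-antisense list and -0.04 for all tested genes. Of the 32 tested genes of the Mirg list 19 were lower and 2 higher in replicate 2. Of the 5 of the Rtl1-antisense list 3 were lower and 2 higher. Over all tested genes the shares were 31.8% lower and 19.0% higher, or 82 and 49 genes. These counts depend on the scaling, since with total counts as library sizes 66 of all tested genes were lower and 67 higher. The counts of both lists are given under the TMM scaling alone. The test also passes smaller differences at higher counts, and the median CPM of both lists was above that of all tested genes.

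**Figure D4:**
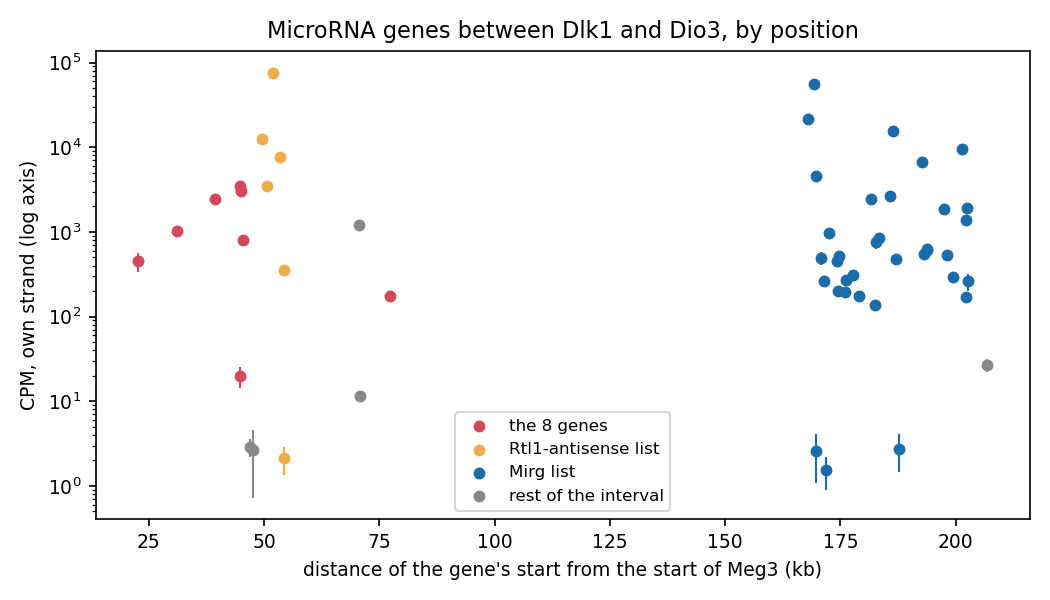
Mean CPM on the own strand (log axis) of 54 microRNA genes between Dlk1 and Dio3, by the distance of the gene's start from the start of Meg3 in kb, with a vertical line from the lower to the higher library. Genes with a library at 0 and a gene more than 300 kb away are not drawn. The 8 genes (red) lie between 22.7 and 77.3 kb, with 7 of them before the Rtl1-antisense list and Mir370 after it.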

How the data were processed

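The authors deposited whole-number read counts per microRNA gene, on either strand, the own strand and the opposite strand, in 1 table per library. Per the file notes and the labels, the build was mm10 and the gene annotation M21, and the aligner, counter and trimming are not given in the sources used here. The 4 lines that name no gene stayed out of library sizes and tests. All 2202 identifiers were matched to GENCODE M21. CPM used own-strand counts over all gene rows. Library sizes were scaled with TMM over all genes with a count (edgeR 4.0.16, R 4.3.3). Each gene at 10 CPM or more in both libraries was compared with the exact binomial test of scipy 1.17.1 (two-sided). The test was first run on simulated counts with set fold changes and counting error alone. Those counts hold no other variation between replicates, so the run does not bear on such variation. With 1 group there was no model of conditions. Log2 ratios are on log2(CPM + 1), replicate 2 minus replicate 1. Folding energies are from ViennaRNA 2.7.2. Named besides the 8 genes were the gene just above and below each in mean CPM, the 2 highest of each other list of the domain, and the markers. The 8 genes, the lists and the tests were chosen with earlier results of these data known.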

Additional observations from a re-analysis of the deposited data

How the results depend on the processing

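The log2 ratios of the 8 genes were recomputed under 8 other settings, which gave 61 values, and 56 of them kept the direction and the side of the threshold. The others were Mir493, which missed the threshold with total counts (-0.01), with every gene with a count tested and with TMM over genes at 10 CPM (-0.03) and turned to 0.020 with TMM over genes at 100 CPM, and Mir673, which missed it in the last setting (-0.06). Both TMM choices were added after the data were seen. In the last setting 3 of the 8 genes were lower in replicate 2, and 74 of all genes were higher, against 49. With either strand counted 1 of the 8 was higher, as Mir337 has no value there. The share of the 8 genes was 0.309% of all reads, 1.03% of reads mapped once and 1.03% with either strand counted, and 1.13% to 1.15% without 1 replicate. Divided by hairpin length, 2 genes changed places. Library differences could not be recomputed without a replicate, since each rests on both. No paired analysis was possible because there is 1 group. Mir3544, at 32 counts in replicate 2, is the gene whose depth limits it most.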

Other observations

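Around the 8 genes lie other microRNA genes of the plus strand with few or no counts. Mir3070a and Mir3070b, which stand between Mir665 and the Rtl1-antisense list, had 6 and 2 counts in replicate 1 and 8 and 10 in replicate 2. A read that maps to both enters neither count, and how far their hairpins share sequence was not examined. Mir1906-1, which lies before Mir770, 3.54 kb after the start of Meg3, was at 0 in both libraries. The limit for a count of 0 is 1.09 CPM in the first and 1.36 CPM in the second. That limit does not cover reads that map to several loci, so it does not show that this numbered copy was silent. The annotated microRNA gene Gm23912, just before Mir370, also had none.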
